A study of Arabidopsis thaliana with 4 samples.

Results

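The 10 genes described here make or control cuticular wax: CER1, CER1-like1, CER3 and MAH1 of the alkane branch, CER4 and WSD1 of the alcohol and ester branch, CER6, KCS1 and KCR1 of chain elongation, and the regulator MYB96. They were taken by locus from a table of read counts for 37051 loci of Arabidopsis thaliana, and all 10 were among the 18092 loci with enough reads to be tested. The set was chosen by the counts of the seedstick mutant against wild type, in which CER1 was high, and the other members were added for their place in the same pathway with that contrast in view. Differences of members between the genotypes are therefore given as a description, and where a fit over all genes called a member, nothing is read from the call.

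The study measured polyadenylated RNA from whole funiculi, the stalks that connect seeds to the fruit wall, at floral stage 17. Wild-type plants of the Columbia ecotype and stk (seedstick) mutants were grown at 22 °C with 16 h of light and 8 h of dark, and each genotype gave 2 libraries of 100 pooled funiculi, labelled as biological replicates. STK encodes a MADS-box transcription factor, and the labels do not name the mutant allele. STK itself gave 374 and 555 CPM (counts scaled to library size) in wild-type funiculi and 238 and 326 CPM in stk funiculi, so a transcript was read in the mutant. Depth ran from 4033589 to 12099218 counts per library, with both replicate 1 libraries shallower than both replicate 2 libraries. A count of 3, used here as the floor, is worth 0.776 CPM in the shallowest library and 0.247 CPM in the deepest, for counting error only.

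Cuticular wax is a mixture of very-long-chain lipids that epidermal cells lay down on the plant surface, where it limits water loss. Fatty acyl chains are lengthened in the endoplasmic reticulum by a complex in which a ketoacyl-CoA synthase such as KCS1 or CER6 joins the units and a reductase, KCR1, takes the next step. The finished chains then enter the alkane branch, in which CER1 acts together with CER3, or the alcohol branch, in which CER4 makes primary alcohols that WSD1 joins to acyl chains as wax esters. MYB96 is a transcription factor that activates wax genes, known from drought and abscisic acid responses.

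CER1 was 10.5-fold higher in stk, and no other member was separated from its wild-type range by nearly as much. CER1 (AT1G02205) had 362 and 293 counts in wild-type replicates 1 and 2 and 1825 and 6020 counts in stk replicates 1 and 2. Scaled to library size, these were 65.1 and 26.9 CPM against 472 and 495 CPM. Both stk libraries lay close together and far above both wild-type libraries. The genotype means were 46.0 ± 27.0 CPM (SD, n = 2) and 484 ± 16.3 CPM, and the lowest stk value was 7.25 times the highest wild-type value. The edgeR log2 fold change was 3.40 ± 0.54 (SE), and 1.39% of the tested genes had a log2 fold change at least as high. In RNA from whole funiculi, a change in the number of cells of a type and a change in RNA per cell cannot be told apart.

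CER1-like1 (AT1G02190) is listed in the gene table as a member of the fatty acid hydroxylase superfamily, and it is the next annotated gene before CER1 on the same strand of chromosome 1. It was almost silent, with 0 and 17 counts in wild type and 0 and 49 counts in stk. On the CPM scale the replicate 2 libraries read 1.56 in wild type and 4.03 in stk, while both replicate 1 libraries read 0. The difference therefore followed the replicate number, and no order of the genotypes can be read from it. Counting can split or lose reads shared between close paralogs, and whether this pair shares reads was not tested.

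CER3 (AT5G57800), the partner of CER1 in alkane synthesis, overlapped between the genotypes, and whether it moved with CER1 cannot be read from these libraries. CER3 gave 1183 and 86.2 CPM in wild-type funiculi and 844 and 296 CPM in stk funiculi. The wild-type libraries were the highest and the lowest of the 4, and the stk libraries lay between them. The genotype means were 635 ± 775 CPM (SD, n = 2) and 570 ± 388 CPM, with a log2 fold change of -0.16 ± 1.02 (SE). In both genotypes replicate 1 was higher than replicate 2, by 13.7 times in wild type and by 2.86 times in stk.

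MAH1 (AT1G57750), a cytochrome P450 that oxidises alkanes to secondary alcohols and ketones, was read only in the replicate 2 libraries. MAH1 had 60 counts (5.51 CPM) in wild-type replicate 2 and 100 counts (8.23 CPM) in stk replicate 2, and 0 in the other libraries. CER1 and CER3 were the alkane genes read in all 4 libraries. CER1 made up 5.22% and 22.4% of the summed CPM of the 4 alkane genes in wild type and 35.9% and 61.7% in stk.

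**Figure D1:**
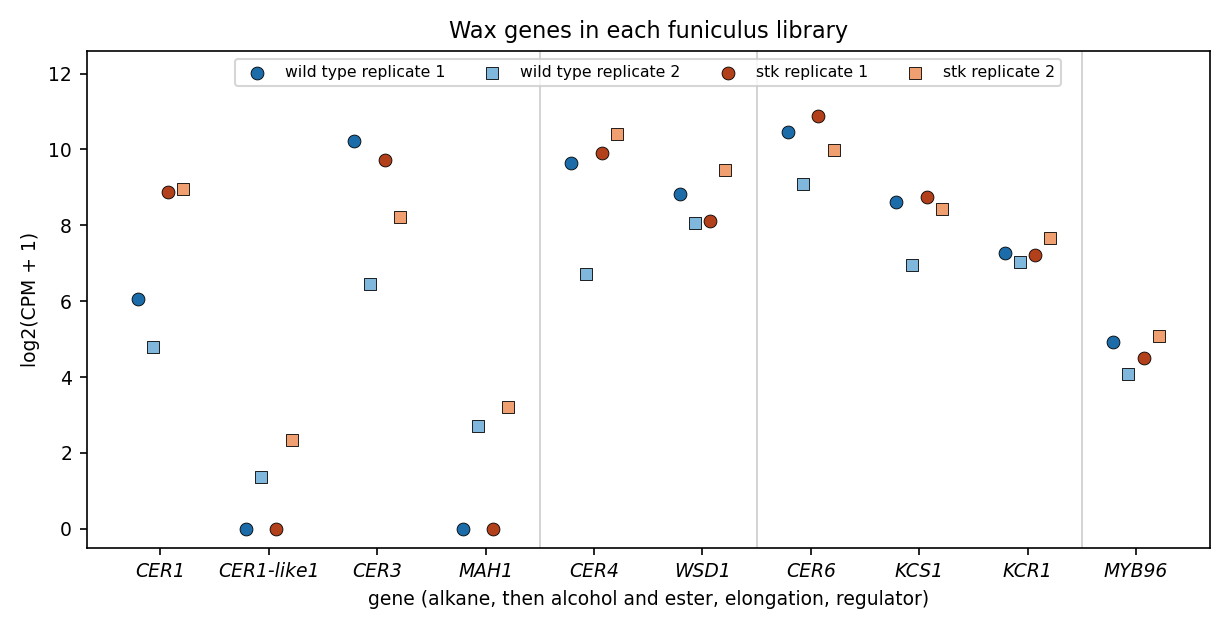
Level of each of the 10 wax genes in each library, as log2(CPM + 1) on the vertical axis, with 1 point per library and no averaging. CER1 has both stk libraries (472 and 495 CPM) well above both wild-type libraries (65.1 and 26.9 CPM), while for CER3, CER4, CER6 and KCS1 wild-type replicate 2 sits apart below the other 3 libraries.

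CER4 (AT4G33790), the fatty acyl-CoA reductase that makes primary alcohols, was the other member whose genotypes did not overlap. CER4 gave 804 and 105 CPM in wild-type funiculi and 954 and 1368 CPM in stk funiculi. Its separation was narrow, since stk replicate 1 was 1.19 times wild-type replicate 1, and the wide mean difference came from wild-type replicate 2. The means were 454 ± 494 CPM (SD, n = 2) and 1161 ± 293 CPM, a log2 fold change of 1.36 ± 0.82 (SE). WSD1 (AT5G37300), the wax ester synthase, gave 449 and 266 CPM in wild-type funiculi and 277 and 699 CPM in stk funiculi. The WSD1 groups overlapped, with the highest and the second lowest value both in stk, and the log2 fold change was 0.45 ± 0.54 (SE).

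The elongation genes overlapped between the genotypes. CER6 (AT1G68530), the condensing enzyme that takes chains to the lengths found in wax, gave 1412 and 542 CPM in wild-type funiculi and 1868 and 1018 CPM in stk funiculi. Replicate 1 was above replicate 2 in both genotypes, by 2.60 and 1.83 times, which is more than the ratio of 1.48 between the genotype means. KCS1 (AT1G01120), a condensing enzyme of broader use, gave 394 and 123 CPM in wild-type funiculi and 429 and 344 CPM in stk funiculi. Here 3 libraries lay together and wild-type replicate 2 lay below them. The log2 fold changes were 0.56 ± 0.57 (SE) for CER6 and 0.58 ± 0.57 for KCS1.

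KCR1 (AT1G67730), the ketoacyl reductase of the elongase, was the steadiest member. KCR1 gave 154 and 130 CPM in wild-type funiculi and 148 and 202 CPM in stk funiculi, with stk replicate 1 inside the wild-type range. Its log2 fold change was 0.30 ± 0.40 (SE). MYB96 (AT5G62470) was below the elongation genes in every library and gave 29.3 and 16.1 CPM in wild-type funiculi and 21.7 and 33.2 CPM in stk funiculi. Per kilobase of coding sequence, MYB96 lay above 40.0% to 61.7% of the tested genes that have a coding length. Its genotypes overlapped, with a log2 fold change of 0.28 ± 0.64 (SE) and a ratio of 1.21 between the genotype means. The part of MYB96 in the CER1 values was not tested.

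Across the set, 9 of 10 members had a positive log2 fold change, and their median was 0.57, beside -0.075 over all tested genes, of which 45.8% were positive. The 9 include CER1-like1 and MAH1, which read 0 in both replicate 1 libraries. KCS1 and MYB96 went to -0.017 and -0.082 without wild-type replicate 2, and to 1.67 and 0.80 without wild-type replicate 1. The members were chosen with this contrast in view, so nothing is read from the count of positive values. Groups did not overlap, higher in stk, for CER1 and CER4, or 2 of 10 members, where 15.9% of all tested genes did so; for 0 members the groups were separated the other way, beside 16.6% of all tested genes. The first share is near the background. With the edgeR quasi-likelihood test and a Benjamini-Hochberg adjusted p under 0.05 over all tested genes, 0 of 10 members were called, beside 0.00553% of all genes, and 1 member had an unadjusted p under 0.05, on the higher side, beside 2.22% of all genes on that side. DESeq2 called 1 member, CER1, beside 0.857% of all genes, and limma-voom called the same gene, beside 0.205%. Nothing is read from these calls, because CER1 was chosen for this difference.

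The lowest library of 8 of the 10 members was wild-type replicate 2, which was the lowest library for 20.2% of all tested genes. This library also had the lowest sums of the phloem and xylem markers, but not of the seed lists. Its 4 phloem markers summed to 246 CPM, beside 992 CPM in wild-type replicate 1 and 465 to 957 CPM in stk, and its 6 xylem markers to 66.2 CPM, beside 216 CPM and 155 to 1254 CPM. The epidermis list of 6 genes summed to 995 CPM in wild-type replicate 2, the highest of the libraries, beside 659 CPM in wild-type replicate 1 and 624 to 703 CPM in stk. Of these sums the marker LTP1 gave 386 CPM in wild-type replicate 2, beside 82.4 CPM in wild-type replicate 1 and 78.4 to 179 CPM in stk. The part of these markers in the wax gene values was not tested.

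The 6 epidermis markers did not move together, with 3 positive and 3 negative log2 fold changes and a median of -0.12. ATML1 (AT4G21750), a homeodomain factor that defines the outer cell layer, gave 79.4 and 88.0 CPM in wild-type funiculi and 84.9 and 95.5 CPM in stk funiculi. PDF2 (AT4G04890), its close relative, was higher in stk without overlap and gave 125 and 136 CPM in wild-type funiculi and 156 and 140 CPM in stk funiculi. KCS10 (AT2G26250), a ketoacyl-CoA synthase of the epidermis, was lower in stk without overlap and gave 338 and 336 CPM in wild-type funiculi and 280 and 244 CPM in stk funiculi. PDF2 and KCS10 were the 1 marker higher and the 1 lower without overlap, of 6, beside 15.9% and 16.6% of all tested genes. LTP1 (AT2G38540), a lipid transfer protein, ran from 78.4 to 386 CPM with a log2 fold change of -0.86, and ACR4 (AT3G59420), a receptor kinase, from 24.8 to 45.1 CPM with -0.35. PDF1 (AT2G42840) read 0 in both replicate 1 libraries and 3.86 and 6.25 CPM in the replicate 2 libraries. None of the 6 epidermis markers was called by edgeR, DESeq2 or limma-voom, and 0 of them had an unadjusted edgeR p under 0.05.

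The 4 phloem markers were split, with 2 positive and 2 negative log2 fold changes, while 5 of 6 xylem markers were positive. SEOR1 (AT3G01680), a structural protein of sieve elements, gave 2.70 and 4.96 CPM in wild-type funiculi and 70.9 and 48.4 CPM in stk funiculi. DESeq2 called SEOR1 higher, 1 of the 4 phloem markers, beside 0.857% of all tested genes. Of the 4 phloem markers 0 were called by edgeR, although 2 were higher at an unadjusted p under 0.05, beside 2.22% of all tested genes. These were SEOR1 and SEOR2 (AT3G01670), a sieve element occlusion protein. SEOR2 gave 37.2 and 28.5 CPM in wild-type funiculi and 175 and 90.4 CPM in stk funiculi. Groups did not overlap, higher in stk, for these 2 of 4 markers, beside 15.9% of all tested genes. APL (AT1G79430), a MYB-type regulator of phloem identity, gave 114 and 61.1 CPM in wild-type funiculi and 86.7 and 47.7 CPM in stk funiculi. SUC2 (AT1G22710), the sucrose transporter of companion cells, gave 839 and 151 CPM in wild-type funiculi and 625 and 278 CPM in stk funiculi. The xylem markers had a median log2 fold change of 1.99, and 0 of the 6 were called by edgeR, DESeq2 or limma-voom. At an unadjusted edgeR p under 0.05, 2 of the 6 were higher, beside 2.22% of all tested genes. These 2 were CESA8 (AT4G18780) and CESA4 (AT5G44030), cellulose synthases of secondary walls, with log2 fold changes of 3.02 and 2.66. CESA8 gave 22.0 and 5.69 CPM in wild-type funiculi and 197 and 26.2 CPM in stk funiculi. It was the 1 xylem marker of 6 higher without overlap, beside 15.9% of all tested genes. CESA4 gave 76.8 and 23.8 CPM in wild-type funiculi and 594 and 41.1 CPM in stk funiculi, and its groups overlapped. CESA7 (AT5G17420) also overlapped, with 39.4 and 5.60 CPM in wild-type funiculi and 306 and 22.7 CPM in stk funiculi. For CESA4, CESA7 and CESA8, stk replicate 1 was far above stk replicate 2. XCP2 and VND7 were positive with overlap, at log2 fold changes of 1.32 and 0.88, and XCP1 was negative, at -0.53.

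The embryo and endosperm list of 7 genes summed to 69.3 and 3.21 CPM in wild-type and to 19.9 and 1.40 CPM in stk funiculi, with ABI3 and PHE1 at 0 in every library. The storage protein gene CRA1 (AT5G44120) made up most of the first value, at 48.8 CPM in wild-type replicate 1. The 2 tested genes of this list, CRA1 and OLEO1, had negative log2 fold changes and overlapped between the genotypes. LEC1 (AT1G21970) lay the other way, with 0 counts in both wild-type libraries and 20 and 3 counts in stk, too few to be tested. The seed coat list of 5 genes summed to 47.5 and 72.9 CPM in wild-type and to 52.8 and 100.4 CPM in stk funiculi, with TT16 at 0 throughout. Most of each seed coat sum was TT2 (AT5G35550), a MYB regulator of seed coat pigment, at 36.3 and 67.8 CPM in wild-type funiculi and 52.8 and 93.2 CPM in stk funiculi. Of the 5 stomatal lineage genes, none of which was tested for lack of reads, SPCH, MUTE and TMM were at 0 in all 4 libraries. EPF2 had 0 counts in both wild-type libraries and 27 and 2 counts in stk, and FAMA had 12 and 16 counts in the replicate 2 libraries of wild type and stk and 0 elsewhere. The part of these tissues in the CER1 values was not tested.

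Ratios of 2 genes within a library need no scaling between libraries. CER1 had 0.0811 and 0.257 counts per count of CER4 in wild type and 0.495 and 0.362 in stk. The means were 0.169 ± 0.125 (SD, n = 2) and 0.428 ± 0.0940. By these means the alkane gene gained on the alcohol gene by less than its own change, since the CER4 mean was also higher in stk. That CER4 difference rested largely on wild-type replicate 2. Without this library the CER4 log2 fold change was 0.54, beside 1.36 with all 4 libraries. Divided by coding length, the mean ratios became 0.132 and 0.335.

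Against its partner CER3, CER1 had 0.0551 and 0.312 counts per count in wild type and 0.560 and 1.68 in stk. Within each genotype replicate 2 had the higher ratio, since CER3 was lower there. Against CER6, which supplies chains to both branches, CER1 stood at 0.0461 and 0.0496 in wild type and at 0.253 and 0.486 in stk. This ratio was the tightest between the wild-type libraries, at 0.0479 ± 0.00246 (SD, n = 2). Against WSD1, CER1 stood at 0.145 and 0.101 in wild type and at 1.70 and 0.708 in stk.

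All 4 ratios with CER1 were higher in stk with no overlap, and they share CER1 and so are not independent of each other. CER1 was chosen for being high in stk, so their rise follows from the choice unless the other gene rose as much. Of the 6 other ratios computed, 5 overlapped between the genotypes. The exception was WSD1 to CER4, at 0.559 and 2.55 in wild type and at 0.291 and 0.511 in stk. The sums of the branches also overlapped between the genotypes. The 2 alcohol and ester genes summed to 1253 and 371 CPM in wild-type and to 1232 and 2067 CPM in stk funiculi. The 3 elongation genes summed to 1959 and 795 CPM in wild-type and to 2445 and 1565 CPM in stk funiculi.

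**Figure D2:**
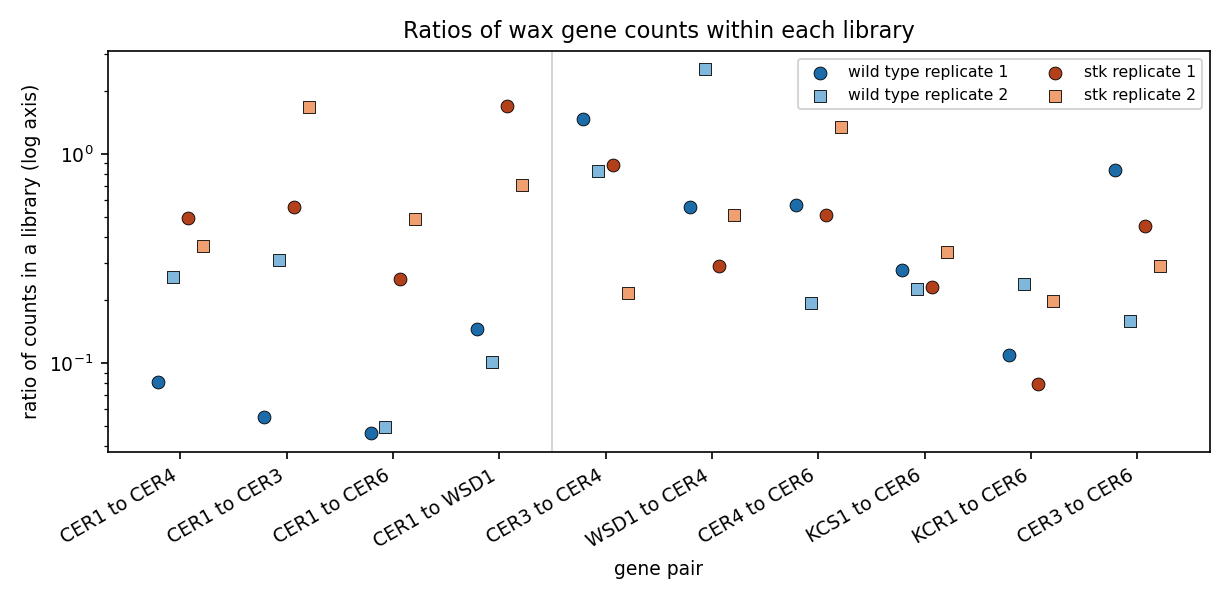
Ratio of the counts of 2 wax genes within each library, on a log axis, with 1 point per library. In the 4 pairs with CER1 (left of the grey line) both stk libraries lie above both wild-type libraries, as for CER1 to CER6 at 0.253 and 0.486 against 0.0461 and 0.0496, while 5 of the 6 other pairs overlap. CER1 was chosen for being high in stk.

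Per kilobase of coding sequence, CER6 was the highest member in wild type, at 654 ± 412 CPM per kb (SD, n = 2). It was followed by CER3 at 334 ± 408, CER4 at 306 ± 334, WSD1 at 238 ± 86.1, KCS1 at 163 ± 121 and KCR1 at 148 ± 17.5 CPM per kb. Each neighbour in that order lay within the spread of the next. CER1 had a lower mean, at 24.3 ± 14.3 CPM per kb, and overlapped with MYB96 at 21.4 ± 8.86 CPM per kb. The SDs of CER3 and CER4 were larger than their means, and their lower values, in wild-type replicate 2, were 45.4 and 70.6 CPM per kb. CER1 gave 34.4 and 14.2 CPM per kb, below both wild-type values of CER3 and of CER4. MAH1 and CER1-like1 were the lowest.

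In stk, CER6 at 966 ± 402 CPM per kb and CER4 at 784 ± 197 CPM per kb were the highest and lay within each other's spread. CER6 ranked first in stk replicate 1 and CER4 in stk replicate 2, and with lengths of all annotated exons the mean of CER4, at 594 CPM per kb, was above that of CER6, at 553 CPM per kb. CER1, at 256 ± 8.59 CPM per kb, stood among WSD1 at 326 ± 199, CER3 at 300 ± 204 and KCS1 at 244 ± 37.8 CPM per kb, and did not differ from them beyond their spread. Among the members, CER1 moved from rank 7 and rank 8 in the wild-type libraries to rank 5 and rank 4 in the stk libraries. With lengths of all annotated exons it ranked 6 and 5 in stk, since its annotated exons total 3593 bases and its coding length is 1893 bases. Compared with 17568 tested genes that have a coding length, CER1 lay above 64.6% and 38.1% of them in wild type and above 94.6% and 94.8% in stk. CER6 lay above 96.8% to 99.2% of them in wild type and 98.5% to 99.5% in stk.

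Leaving out single libraries changed the members to very different degrees. The log2 fold change of CER1 was 4.19 without wild-type replicate 1, 2.90 without wild-type replicate 2, 3.45 without stk replicate 1 and 3.36 without stk replicate 2. In each of these fits 1 genotype had a single library, which was assumed to vary like the pair of the other genotype. CER3 went from -0.16 to 2.74 without wild-type replicate 1 and to -1.05 without wild-type replicate 2. CER4 went from 1.36 to 3.50 and to 0.54 in the same fits, CER6 from 0.56 to 1.43 and 0.04, and KCS1 from 0.58 to 1.67 and -0.017. The stk libraries mattered too, since CER3 went to -1.08 without stk replicate 1 and to 0.41 without stk replicate 2, and CER6 to 0.080 and 0.93. The size of these members' differences thus rested on which libraries were used.

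**Figure D3:**
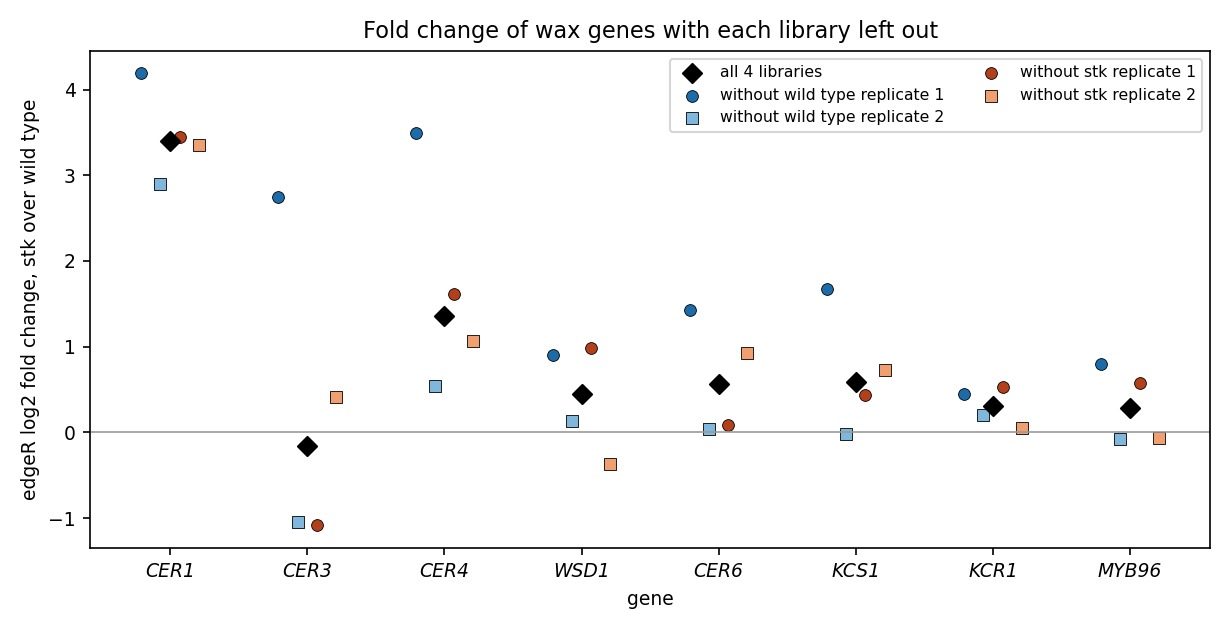
edgeR log2 fold change (stk over wild type) of 8 wax genes, with all 4 libraries (black diamonds) and with each library left out (coloured points). CER1 stays between 2.90 and 4.19, while CER3 runs from -1.08 to 2.74 and CER4 from 0.54 to 3.50. CER1-like1 and MAH1 are not drawn, because with 1 library left out a genotype can be at 0 counts.

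The other genes of the wax pathway, in 5 lists of 65 genes, gave no call in stk against wild type. Of these, 46 were tested, 27 with a positive and 19 with a negative fold change; the median was 0.12 on the log2 scale. edgeR called 0 of the 46 in either direction, as did DESeq2 and limma-voom, and 1 gene was higher and 0 lower at an unadjusted edgeR p under 0.05, beside 2.22% and 1.14% of all tested genes. Groups did not overlap for 13 genes higher in stk and 7 lower, of 46, beside 15.9% and 16.6%.

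In the elongation list, 20 of 25 genes were tested, 12 positive and 8 negative, with a median of 0.16. LACS1 (AT2G47240), a long-chain acyl-CoA synthetase that activates fatty acids for wax and cutin, gave 224 and 302 CPM in wild-type funiculi and 389 and 466 CPM in stk funiculi (edgeR adjusted p = 1). CER26 (AT4G13840), a relative of CER2 that helps the elongase reach the longest chains, gave 367 and 175 CPM in wild-type funiculi and 399 and 426 CPM in stk funiculi (edgeR adjusted p = 1). Both had stk libraries above the wild-type libraries by a margin under 1.5 times.

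KCS8 (AT2G15090), a ketoacyl-CoA synthase of the same family as CER6, had the lowest p of the list and lay the other way. It had 1.62 and 7.35 CPM in wild-type funiculi and 0 in both stk libraries (edgeR adjusted p = 1). Against a floor of 3 counts over the stk group it was at least 28.9-fold lower, a bound that fell to 6.97 when stk replicate 2 was left out and to 8.65 when wild-type replicate 2 was. With KCS8 at its bound the median of the list was still 0.16.

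In the alkane branch, 4 of 5 genes were tested, 3 positive and 1 negative, and all 4 encode cytochrome b5 proteins, the electron carriers that work with CER1. CYTB5-E (AT5G53560) gave 202 and 318 CPM in wild-type funiculi and 303 and 374 CPM in stk funiculi, while CYTB5-D (AT5G48810) gave 149 and 151 CPM and then 179 and 200.5 CPM. CYTB5-B (AT2G32720), with the lowest p, gave 77.4 and 109 CPM in wild-type funiculi and 209 and 117 CPM in stk funiculi (edgeR adjusted p = 1). CYTB5-C (AT2G46650), named after its values were seen, was the uneven one, with 148 and 1.74 CPM in wild-type funiculi and 41.7 and 27.4 CPM in stk funiculi. AT2G37700, the other CER1-like gene of the list, had no counts in any library.

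In the alcohol branch, the listed reductase and ester synthase genes other than CER4 and WSD1 were almost silent. Only 1 of 10 was tested, AT3G49210 (WSD6), an acyltransferase of the WSD1-like family. It read 1.29 CPM in wild-type replicate 2, 3.21 CPM in stk replicate 2 and 0 in the replicate 1 libraries (edgeR adjusted p = 1). The 10 genes summed to between 0 and 5.92 CPM in any library.

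Of 18 other wax regulators, 15 were tested, 6 positive and 9 negative, with a median of -0.19. SHN3 (AT5G25390), an AP2-type activator of cuticle genes, gave 229 and 305 CPM in wild-type funiculi and 226 and 242 CPM in stk funiculi (edgeR adjusted p = 1). MYB30 (AT3G28910), a MYB factor that activates very-long-chain fatty acid genes, gave 287 and 256 CPM in wild-type funiculi and 199 and 240.5 CPM in stk funiculi (edgeR adjusted p = 1). WRI4 (AT1G79700), an AP2-type activator of stem wax, had the lowest p, with 47.7 and 21.3 CPM in wild-type funiculi and 69.1 and 86.5 CPM in stk funiculi, where log2 fold change was 1.18 ± 0.52 (SE) and edgeR's adjusted p = 1. WRI4 was higher in both stk libraries, but none of these 15 regulators passed.

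In the wax export list, 6 of 7 genes were tested, 5 positive and 1 negative, with a median of 0.30. LTPG1 (AT1G27950), a membrane-anchored lipid transfer protein of wax export, gave 599 and 393 CPM in wild-type funiculi and 699 and 664 CPM in stk funiculi, while LTPG2 (AT3G43720), its relative, gave 358 and 362 CPM and then 252 and 538 CPM. LTPG6 (AT1G55260), of the same family, had the lowest p, with 184 and 140 CPM in wild-type funiculi and 569 and 236 CPM in stk funiculi, where log2 fold change was 1.31 ± 0.51 (SE) and edgeR's adjusted p = 1. LTPG6 was the 1 gene of the 46 under an unadjusted p of 0.05.

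**Figure D4:**
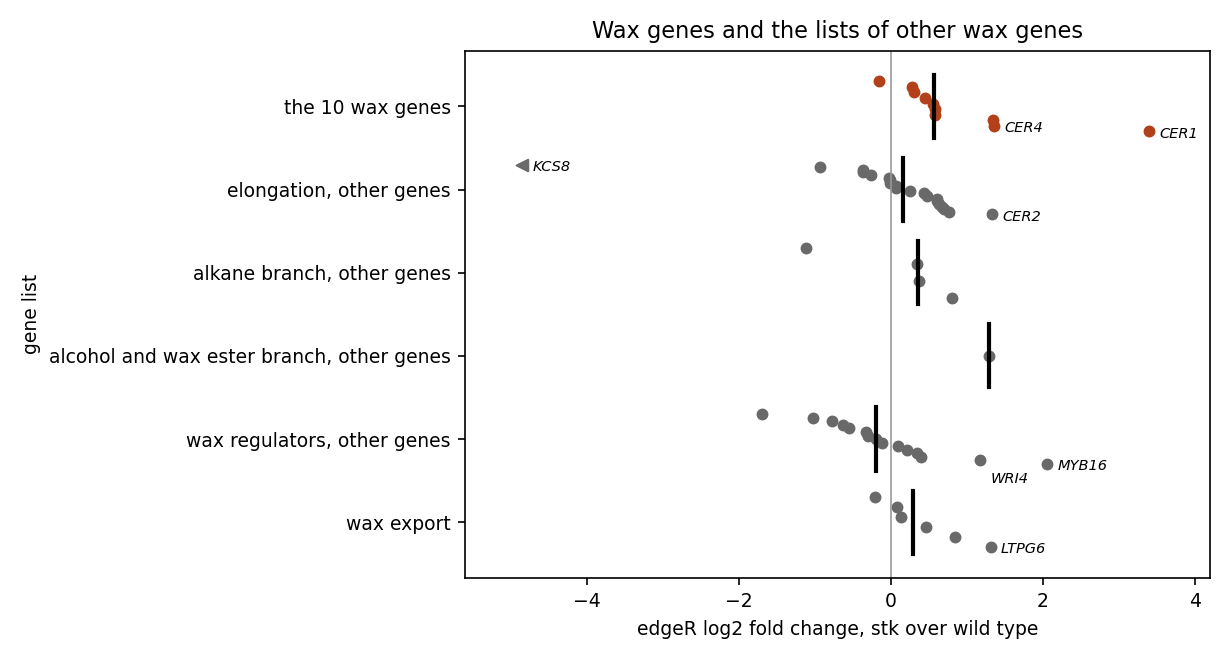
edgeR log2 fold change (stk over wild type) of the 10 wax genes (red) and of the tested genes in 5 lists of other wax genes (grey), with 1 point per gene and the list median as a black bar. CER1 at 3.40 lies above all 46 listed genes, whose medians run from -0.19 to 1.29 (the latter from 1 gene), and KCS8 is drawn as an arrowhead at its bound of -4.85.

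The genes whose pattern over the 4 libraries was most like that of CER1 were found by the distance between centred log2(CPM + 1) values among 15570 genes whose mean reached 5 CPM. The nearest was AT2G40460, annotated as a major facilitator superfamily protein, at a distance of 0.17 log2 units. It gave 4.50 and 1.38 CPM in wild-type funiculi and 33.6 and 38.8 CPM in stk funiculi. ARGAH2 (AT4G08870), an arginase, followed at 0.29, with 7.56 and 3.31 CPM in wild-type funiculi and 54.3 and 62.4 CPM in stk funiculi. AT5G01870, annotated in the lipid-transfer protein superfamily, came next at 0.54, with 113 and 32.8 CPM in wild-type funiculi and 502 and 560 CPM in stk funiculi.

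The other near patterns were those of RBOHF (AT1G64060), a respiratory burst oxidase, AT5G54530, a protein of unknown function, AT4G29110, annotated as a cotton fiber protein, SCPL11 (AT2G22970), a serine carboxypeptidase-like protein, and AT2G37300 (ABCI16). Their distances were 0.56, 0.57, 0.59, 0.60 and 0.62 log2 units. None of these 8 genes belonged to the wax lists. At most 46 of the 15570 genes compared were listed wax genes, so nothing is read from this. Among the members, CER4 came closest to CER1, at a distance of 1.96 and rank 186, followed by KCS1 at 2.72 and rank 840, while CER3 was at 3.55 and rank 5620. Of the 7 members compared, CER3 was the farthest from CER1, with KCR1 at 3.30 and WSD1 at 3.29 close to it. This distance also grows with the difference between replicates, which for CER3 was 13.7 times in wild type.

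For CER6 the nearest patterns were those of MUB6 (AT1G22050), a membrane-anchored ubiquitin-fold protein, CLC-C (AT5G49890), a chloride channel, AT4G16190, a papain family protease, and AT5G59960, at distances of 0.06, 0.06, 0.09 and 0.11 log2 units. KCS1 was the member closest to CER6, at 0.47 and rank 170, and CER1 was the farthest, at 2.92 and rank 13381. These distances describe 4 libraries and carry no test.

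No member overlaps another annotated gene, which matters because the library kit does not mark strand. Of the 10 members, 6 lie on chromosome 1, 1 on chromosome 4 and 3 on chromosome 5. CER1-like1 is the neighbour of CER1 on one side, and AT1G08785, a non-coding RNA locus on the opposite strand and not analysed here, is the neighbour on the other.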

How the data were processed

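Raw counts of reads for each locus were deposited, with a column per library, 2 per genotype. The submitters' processing notes list Trimmomatic (0.38), DESeq2 (1.38.3), STAR (2.7.0), R and featureCounts (1.6.3) without saying what each did. Build, annotation, strand setting and multi-mapping rule were not given in the sources used here. Each of the 37051 loci was found in the TAIR10.1 gene table, used for names, neighbours and lengths; no coordinates are printed.

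The main test was edgeR's quasi-likelihood test (edgeR 4.0.16, R 4.3.3) on all 4 libraries, with TMM scaling, filterByExpr (18092 loci), genotype alone as a term and Benjamini-Hochberg adjustment at 0.05. CPM values use TMM-scaled library sizes. The standard error of a fold change comes from the F statistic. DESeq2 1.42.0, limma-voom (limma 3.58.1), other scalings and filters, a replicate block and each library left out were alternatives. The labels call the replicates biological and name no batch.

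The members and gene lists were chosen with earlier results of these data known. Of 66 listed wax genes, 1 was left out because the gene table gives its locus another product. From each list the text names genes past the edgeR threshold or, with none, the gene with the lowest p, and the 2 with the highest mean CPM. The 8 genes nearest to CER1 and the 4 nearest to CER6 are named, as are markers and neighbouring loci.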

Additional observations from a re-analysis of the deposited data

How the results depend on the processing

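edgeR called 1 gene in stk against wild type, and this count was 155 with DESeq2, 37 with limma-voom, 275 without a filter on low counts, 0 where a gene's mean had to reach 5 CPM (there 567 genes had an unadjusted p under 0.05) and between 5 and 198 with a library left out; the cause was not tested. CER1 was called in 5 of the 12 fits, namely DESeq2, limma-voom, no filter, the replicate block and without wild-type replicate 1, beside 0.205% to 1.17% of all genes; it was chosen for this difference. Its log2 fold change stayed between 2.90 and 4.19. The replicate numbers come with no stated pairing, and replicate 1 minus replicate 2 correlated across genes between the genotypes at r = 0.245; with the replicate block edgeR called 169 genes. Of the other wax genes, 0 were called in any of these edgeR or limma-voom fits or in DESeq2 with all 4 libraries, where 1 to 8 of them had an unadjusted p under 0.05 in the edgeR fits, 5 in limma-voom and 2 in DESeq2. DESeq2 with a library left out, added after seeing the data, called CER1 each time, beside 0.304% to 2.28% of all genes. Without wild-type replicate 1, DESeq2 and edgeR both also called CER3 and CER4, beside 1.12% and 1.01% of all genes, and DESeq2 called ABCG12 and CYTB5-C; without stk replicate 2, DESeq2 called CER7. With a library left out, the lone library was assumed to vary like the other genotype. The sign changed in some fits for CER3 (4), MAH1 (2), MYB96 (2), WSD1 (1) and KCS1 (1). Depth limits levels under about 3 counts, worth 0.540 and 0.776 CPM in the replicate 1 libraries. CER1-like1 and MAH1 read 0 there and 1.56 to 8.23 CPM in the replicate 2 libraries, above those floors; the cause was not tested.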
